A study of Mus musculus with 12 samples.

Results

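The Dlk1-Dio3 cluster is a stretch of mouse chromosome 12 whose genes are imprinted, that is, expressed from 1 parental chromosome. It was followed here through the 4 genes Dlk1, Meg3, Rian and Mirg, taken as every probe set annotated to one of them, which gave 5 of 35512 probe sets and 4 of 21335 named genes. Dlk1 encodes a membrane protein related to the Notch ligands and is transcribed from the paternal chromosome. Meg3 (also called Gtl2), Rian and Mirg are noncoding RNAs transcribed in 1 direction from the maternal chromosome, and they carry the snoRNAs (small nucleolar RNAs) and microRNAs of the cluster. A region between Dlk1 and Meg3, methylated on the paternal chromosome, governs which genes are active on each chromosome, and loss of Meg3 expression in some mouse induced pluripotent stem cell lines is a known feature of reprogramming.

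RNA from 12 cell preparations was measured on 1 array each, in a study of Mbd3, a subunit of the NuRD repressor complex, in the reprogramming of mouse embryonic fibroblasts (MEF). The pluripotent arrays were 2 of induced pluripotent stem cells (iPSC), Mbd3flox/- (flox/-) and Mbd3+/+ (WT), and 2 of embryonic stem cells (ESC), Mbd3-/- (-/-) and WT, the last from line V6.5. Another 5 arrays were of MEF with doxycycline (DOX) switching on an OSKM transgene (Oct4, Sox2, Klf4, Myc): flox/- at days 4 and 8, and WT at days 4, 8 and 11. The remaining 3 arrays were of flox/-, -/- and WT MEF before DOX. All WT and flox/- cells except WT ESC carried the DOX-inducible OSKM transgene, while the labels of the -/- MEF, -/- ESC and WT ESC name none. Per the labels, all cells were kept in N2B27 with 15% KSR, 2i and LIF on irradiated DR4 feeder MEF, so feeder RNA may be present in any sample. The labels do not say whether any 2 arrays came from separate animals, so p-values measure only the spread between these arrays, and the arrays joined as 1 state differ in genotype, line or day. Of the 12, WT day 8 and WT ESC had appeared in an older series, and 1 label of the WT day 8 array gives 4 days where its title and stage give 8.

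Values are log2 signals after quantile normalization, and a level is compared only within a probe set. Mbd3 signal was 6.73 on the -/- ESC array, 8.15 on the -/- MEF array, and between 8.73 and 9.67 on the 10 flox/- and WT arrays. The mean signal of 10 pluripotency genes was 11.49 to 11.53 on the 4 pluripotent arrays, 6.69 to 11.55 on the 5 DOX arrays and 5.34 to 5.54 on the 3 MEF arrays. The mean signal of 11 fibroblast genes, collagen genes among them, was 5.99 on the flox/- iPSC array, 9.15 on the WT iPSC array, 7.71 on the -/- ESC array and 7.95 on the WT ESC array, against 11.43 to 11.61 on the MEF arrays. It was 5.98 to 10.73 on the DOX arrays, where the WT day 11 array had 9.92. The mean of 7 macrophage genes was 5.07 to 6.77 on pluripotent, 5.01 to 8.91 on DOX and 7.24 to 10.36 on MEF arrays. In such bulk RNA, fewer cells of a type and less RNA per cell cannot be told apart.

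**Figure D1:**
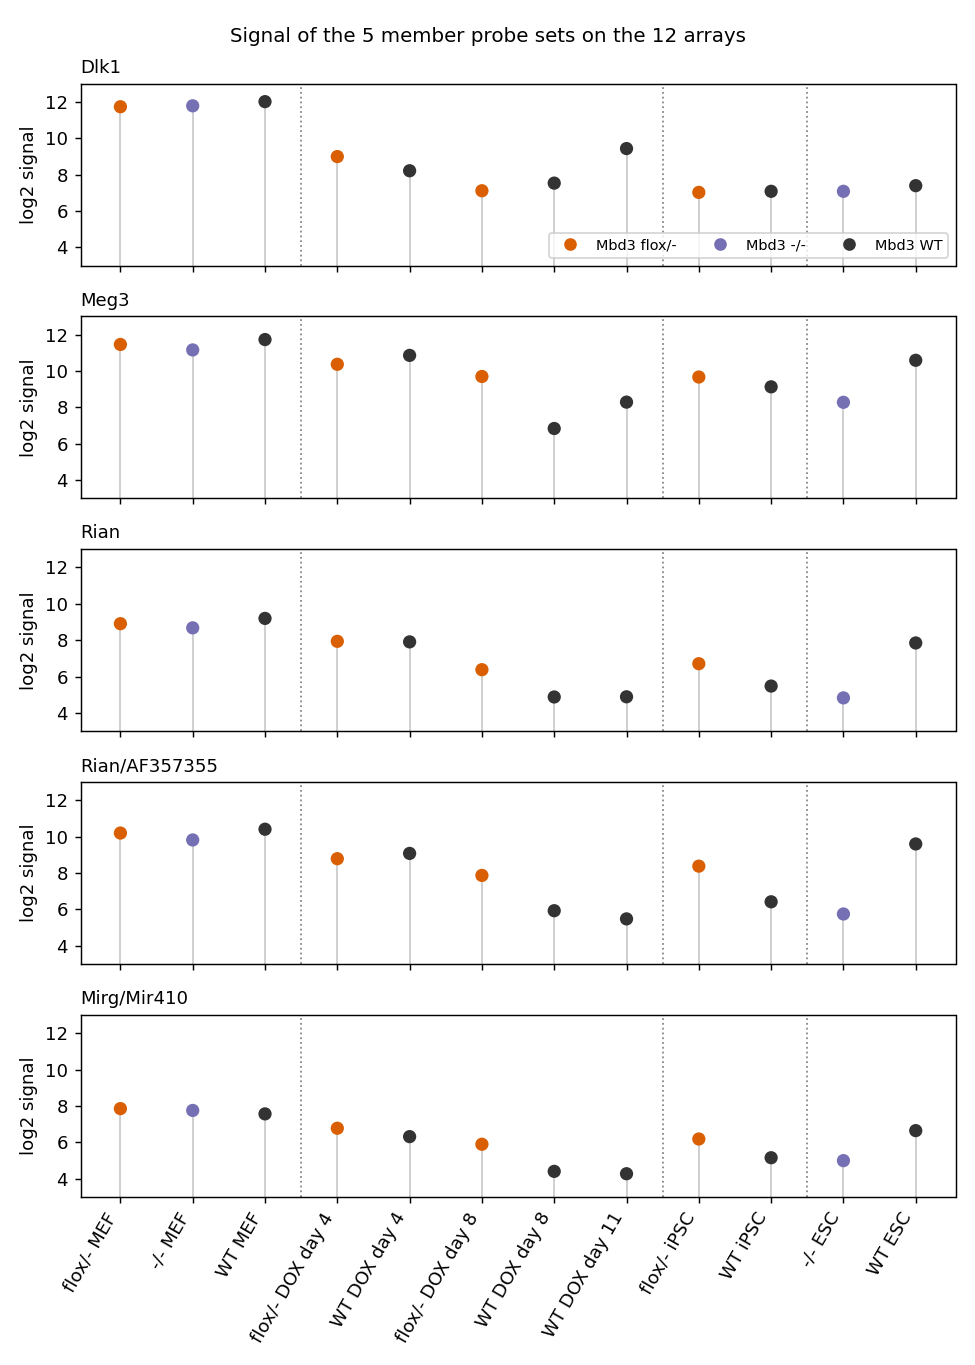
Log2 signal (vertical axis, 3 to 13) of the 5 member probe sets on each of the 12 arrays (horizontal axis, 1 point an array, coloured by Mbd3 genotype; dotted lines part MEF, DOX, iPSC and ESC). Dlk1 lies between 11.73 and 12.01 on the MEF arrays and between 7.02 and 7.39 on the pluripotent arrays, while Meg3, both Rian probe sets and the Mirg probe set are spread over the pluripotent arrays with WT ESC on top.

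Pluripotent lines were first set against MEF, which asks how the cluster's expression differed between fibroblasts and established pluripotent lines, ESC included. In this contrast 4 of the 5 member probe sets fell in the pluripotent arrays by limma at an adjusted p under 0.05, and none rose. Of all probe sets 31.9% were called, 15.1% lower and 16.8% higher in pluripotent arrays. The pluripotent and MEF arrays did not overlap for any of the 5, which held, in one direction or the other, for 40.7% of all probe sets. Of the 11 fibroblast genes 10 fell in the same comparison (median -3.88), and 5 of 7 macrophage genes did; their part in the member differences was not tested.

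Dlk1 was the most sharply separated member. Its signal was 7.02 in flox/- iPSC, 7.08 in WT iPSC, 7.08 in -/- ESC and 7.39 in WT ESC, against 11.73 in flox/- MEF, 11.78 in -/- MEF and 12.01 in WT MEF. All 4 pluripotent arrays were low and close together. Dlk1 averaged 7.14 ± 0.17 in pluripotent arrays (SD, n = 4) and 11.84 ± 0.15 in MEF arrays (SD, n = 3), and it fell by 4.70 ± 0.12 (SE) on the log2 scale, 26.0-fold (limma adjusted p = 3.71e-06).

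Meg3, the noncoding RNA at the start of the maternal transcripts, was spread over the pluripotent arrays, lowest in -/- ESC and nearest to MEF in WT ESC. Its signal was 9.67 in flox/- iPSC, 9.13 in WT iPSC, 8.28 in -/- ESC and 10.59 in WT ESC, against 11.46 in flox/- MEF, 11.16 in -/- MEF and 11.73 in WT MEF. The spread among pluripotent arrays was wide, with a mean of 9.42 ± 0.97 (SD, n = 4) against 11.45 ± 0.28 in MEF arrays (SD, n = 3). Meg3 fell by 2.03 ± 0.51 (SE) on the log2 scale, 4.09-fold (limma adjusted p = 0.021). This call did not survive the removal of WT iPSC (adjusted p = 0.0543), of WT MEF (0.0700) or of flox/- MEF (0.0680), nor a fit of all 12 arrays at once (0.117).

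Rian, the host transcript of many snoRNAs, has 2 probe sets, of which 1 is annotated to Rian alone and 1 also to the snoRNA AF357355. The first had a signal of 6.71 in flox/- iPSC, 5.48 in WT iPSC, 4.83 in -/- ESC and 7.85 in WT ESC, against 8.91 in flox/- MEF, 8.68 in -/- MEF and 9.20 in WT MEF. The second had 8.38 in flox/- iPSC, 6.42 in WT iPSC, 5.75 in -/- ESC and 9.60 in WT ESC, against 10.20 in flox/- MEF, 9.82 in -/- MEF and 10.41 in WT MEF. Both put the 4 pluripotent arrays in the same order, with WT ESC highest and -/- ESC lowest. The Rian-only probe set fell by 2.71 ± 0.69 on the log2 scale, 6.54-fold (limma adjusted p = 0.0225), a call lost without WT iPSC (0.0566) or any 1 of the MEF arrays (0.0557 to 0.0716). The shared Rian probe set differed by -2.61 ± 0.91 and was not called (limma adjusted p = 0.0689); it was called without the WT ESC array (-3.30, adjusted p = 0.0132) and with dim probe sets left out (0.0435).

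Mirg, the distal transcript that hosts many of the microRNAs, is measured by 1 probe set, annotated to both Mirg and the microRNA gene Mir410. Its signal was 6.18 in flox/- iPSC, 5.15 in WT iPSC, 4.99 in -/- ESC and 6.64 in WT ESC, against 7.85 in flox/- MEF, 7.75 in -/- MEF and 7.56 in WT MEF. The order of the pluripotent arrays was that of Rian. The probe set fell by 1.98 ± 0.41 (SE) on the log2 scale, 3.95-fold (limma adjusted p = 0.01).

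**Figure D2:**
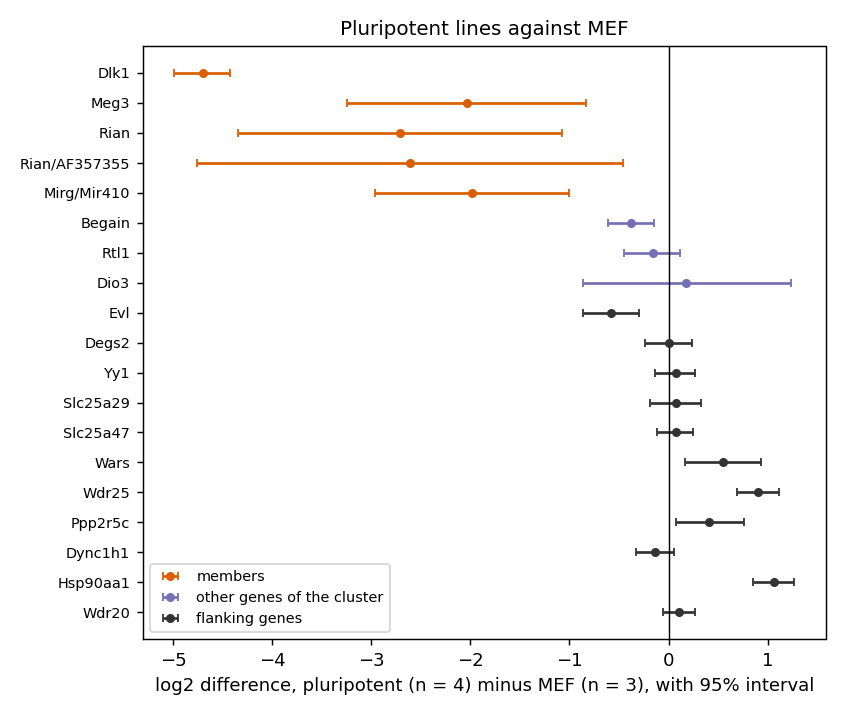
Log2 difference (horizontal axis) of the 4 pluripotent arrays minus the 3 MEF arrays for the 5 member probe sets, 3 other genes of the cluster and 11 flanking genes; bars are 95% intervals of the limma fit. The members lie between -4.70 and -1.98, while the flanking genes lie between -0.58 and 1.06.

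The promoter window of Meg3 is shown because Meg3 is the first of the transcripts that differed together among the pluripotent lines. It spans chr12:109540746-109541045 on the plus strand of GRCm38.p6 (RefSeq), from 250 bases before the annotated start to 50 after it. Capitals mark, in order, GCGGCA (the reverse complement of TGCCGC, the core letters of the ZFP57 motif, on the minus strand), TGACGTCA (the cAMP response element, which reads the same on both strands) and overlapping TATAAA matches on both strands.
Meg3 promoter: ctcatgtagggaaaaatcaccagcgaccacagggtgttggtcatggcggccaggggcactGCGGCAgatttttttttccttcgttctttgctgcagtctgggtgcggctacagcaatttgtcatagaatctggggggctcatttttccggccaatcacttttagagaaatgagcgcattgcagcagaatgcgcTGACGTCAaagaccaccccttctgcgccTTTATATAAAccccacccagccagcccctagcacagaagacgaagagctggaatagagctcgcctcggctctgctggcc
Searching both strands, TGACGTCA occurred in 1.79%, TGCCGC in 11.6% and TATAAA in 13.6% of 32851 promoter windows of this length. The cAMP response element began 57 bases before the start. The window holds 13 CpG, against a median of 7 over all windows. The windows of Dlk1, Rian and Mirg hold 9, 0 and 10 CpG and none of these 3 motifs. No methylation or binding was measured here, and a match is a description of the letters.

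RefSeq lists 80 microRNA and snoRNA genes from the start of Dlk1 to the end of Dio3. They gave 42 further probe sets with 1 symbol each, 40 for microRNAs and 2 for snoRNAs. These probe sets read hairpin or host sequence in oligo(dT)-primed RNA, so they do not measure mature microRNAs, and 22 of the 42 exceeded their array's median on at least 1 array. Of the 42, 32 fell in pluripotent arrays against MEF and 0 rose by limma, while 15.1% of all probe sets were called lower and 16.8% higher. The median difference was -0.99, against 0.01 over all probe sets. All 42 differences were below 0, which held for 48.2% of all probe sets. By position, 5 of 8 fell between Meg3 and Rian, 3 of 4 within Rian and 24 of 30 from Rian to the end of Mirg.

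The 5 of the highest mean were DQ267102, a snoRNA within Rian, Mir341, Mir667, Mir134 and Mir673. Mir134 had 7.97 in flox/- iPSC, 7.12 in WT iPSC, 7.13 in -/- ESC and 8.51 in WT ESC, against 9.25 in flox/- MEF, 9.21 in -/- MEF and 9.54 in WT MEF. It fell by 1.65 ± 0.36 on the log2 scale (limma adjusted p = 0.0116), and its groups did not overlap. Mir341 fell by 0.80 ± 0.23 (adjusted p = 0.0349) and Mir667 by 0.61 ± 0.17 (adjusted p = 0.031), while Mir673 differed by -0.07 ± 0.10 and was not called (adjusted p = 0.687). DQ267102 had 10.40 in flox/- iPSC, 8.50 in WT iPSC, 8.17 in -/- ESC and 11.62 in WT ESC, against 11.67 in flox/- MEF, 11.31 in -/- MEF and 11.75 in WT MEF. The WT ESC array lay among the MEF arrays for this snoRNA, and the difference of -1.91 ± 0.83 was not called (adjusted p = 0.131).

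Mature sequences of 5 of the microRNA genes named here, and of 1 seed partner, are shown to place the host signals beside their products. For Mir377, Mir382 and Mir494 only 1 arm is shown. Other named genes, Mir667 and Mir673 among them, are left out. They are from RefSeq (GRCm38.p6, chromosome 12), with the seed, bases 2 to 8, in capitals.
miR-134-5p: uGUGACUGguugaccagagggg
miR-134-3p: cUGUGGGCcaccuagucacc
miR-341-5p: cGGUCGGCcgaucgcucgguc
miR-341-3p: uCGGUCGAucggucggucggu
miR-377-3p: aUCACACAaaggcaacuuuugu
miR-382-5p: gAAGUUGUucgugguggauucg
miR-410-5p: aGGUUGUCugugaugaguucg
miR-410-3p: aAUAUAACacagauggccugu
miR-494-5p: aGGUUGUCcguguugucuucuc
Of 113 mature sequences of the cluster, from 61 microRNA genes, 9 seeds were shared by 2 sequences each, among them that of miR-410-5p and miR-494-5p. Of the genes shown, Mir382 fell by 2.79 ± 0.38 and Mir377 by 2.51 ± 0.51 on the log2 scale in pluripotent arrays against MEF (limma adjusted p = 0.00161 and 0.00887). These were the largest falls among the 42 small RNA probe sets. Mir494 was dim, with 4.43 to 4.65 on the pluripotent arrays and 4.75 to 5.07 on the MEF arrays, and fell by 0.35 ± 0.10 (limma adjusted p = 0.0358).

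The 2 iPSC lines were next set against the 2 ESC lines, the contrast in which loss of Meg3 expression is usually sought. The limma test called 0 of 35512 probe sets, the members included (background 0.0%), with 894 probe sets and 0 members at an unadjusted p under 0.05. Meg3 averaged 9.40 ± 0.39 in iPSC and 9.43 ± 1.64 in ESC (SD, n = 2 each), a difference of -0.03 with a 95% interval from -2.54 to 2.47. The Rian-only probe set differed by -0.24, with an interval from -3.67 to 3.19, and the Mirg probe set by -0.15, from -2.21 to 1.90. The ESC arrays lay at both ends of the 4, so the iPSC values fell between them for all member probe sets except Dlk1. Dlk1 averaged 7.05 ± 0.04 in iPSC and 7.23 ± 0.22 in ESC (SD, n = 2 each), and differed by -0.18 (95% interval -0.63 to 0.26). These intervals include differences of over 2-fold either way for Meg3, Rian and Mirg.

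Line by line, the maternal transcripts were lower in each other pluripotent line than in WT ESC. In WT iPSC minus WT ESC, Meg3 differed by -1.46, Rian by -2.37 and -3.19 (Rian-only and shared probe set) and Mirg by -1.50, while Dlk1 differed by -0.31. Only 1.38% of all probe sets were at least 2-fold lower between these 2 arrays, and 0.425% had a lower difference than Meg3 and 0.031% than the shared Rian probe set. In flox/- iPSC minus WT ESC, the differences were -0.92 for Meg3, -1.14 and -1.23 for Rian and -0.47 for Mirg, with 2.16% of probe sets at least 2-fold lower. The WT ESC array is of the older series and the iPSC arrays are not, so line and series cannot be told apart in these differences. Each value is 1 array, with no test.

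Against the other ESC line, both iPSC lines were on the other side. In WT iPSC minus -/- ESC, Meg3 differed by 0.85, Rian by 0.66 on both probe sets and Mirg by 0.16, with 2.24% of probe sets at least 2-fold higher. In flox/- iPSC minus -/- ESC, Meg3 differed by 1.40, Rian by 1.89 and 2.63 and Mirg by 1.19, with 1.27% of probe sets at least 2-fold higher. The 4 lines thus ran in the order WT ESC, flox/- iPSC, WT iPSC, -/- ESC, from high to low, in all 4 probe sets of Meg3, Rian and Mirg. With 1 array a line there is no spread within a line against which neighbours in this order can be set.

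The small RNA probe sets had lower values than WT ESC along the whole cluster. In WT iPSC minus WT ESC, 39 of 42 were below 0 (54.2% of all probe sets were) and the median was -0.43. At least 2-fold lower were 9 of 42, and 1.38% of all probe sets. In flox/- iPSC minus WT ESC, 37 of 42 were below 0 (53.3% of all) and the median was -0.24. Here 1 of 42 was at least 2-fold lower, near the 2.16% of all probe sets. In -/- ESC minus WT ESC, 41 of 42 were below 0 (55.9% of all) and the median was -0.48. There 8 of 42 were at least 2-fold lower, against 3.23% of all probe sets. Of these arrays only WT ESC is of the older series, so line and series cannot be told apart. The probe sets that spanned 2-fold or more across the 4 pluripotent arrays numbered 9, and WT ESC was the highest array in all 9, with WT iPSC lowest in 5 and -/- ESC lowest in 4. Of all 35512 probe sets 4271 spanned 2-fold or more across these arrays, and WT ESC was the highest in 28.9% of those. The 9 were picked by their span over the same 4 arrays, so a high WT ESC value alone could bring one in. Among the other lines, 5 of 42 were at least 2-fold higher in flox/- iPSC than in -/- ESC (1.27% of all probe sets were). In flox/- iPSC minus WT iPSC, 4 of 42 were at least 2-fold higher (1.59% of all). In WT iPSC minus -/- ESC, 0 were at least 2-fold apart, where few of all probe sets were (2.27% lower and 2.24% higher). Small RNA probe sets can share a host transcript, so the 9 are not separate observations.

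**Figure D3:**
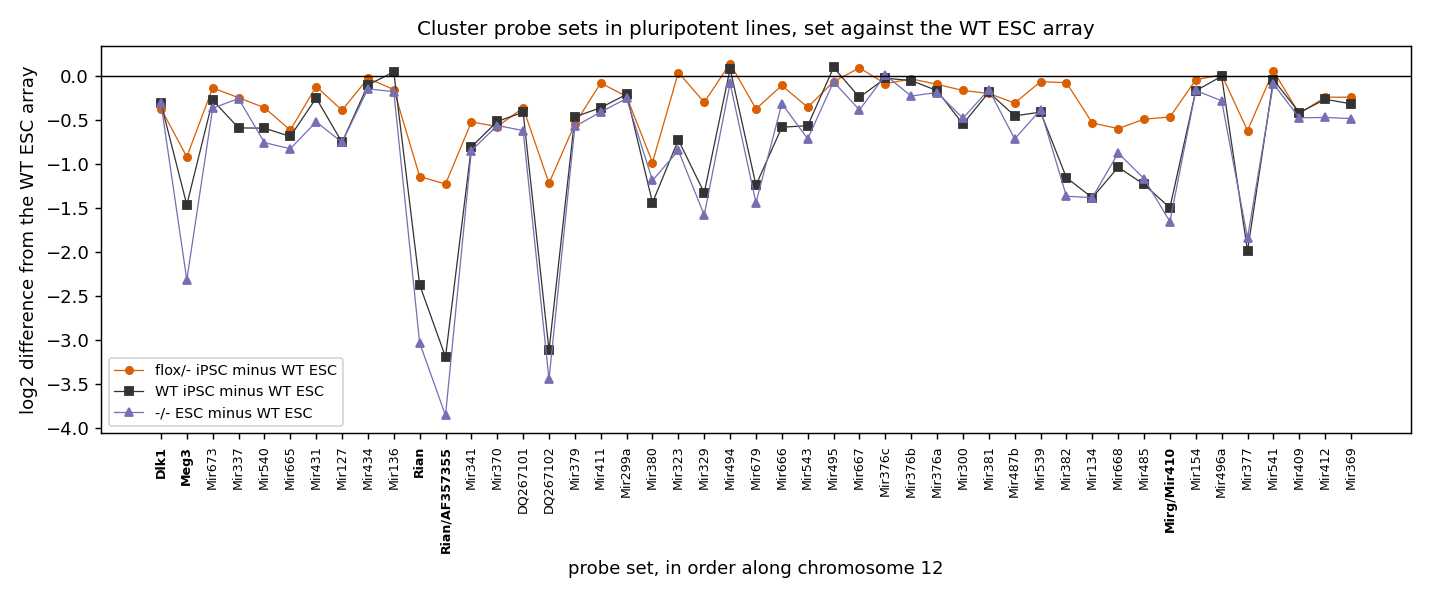
Log2 difference from the WT ESC array (vertical axis) of the flox/- iPSC, WT iPSC and -/- ESC arrays for the 5 member probe sets (bold) and 42 small RNA probe sets, in order of gene start along chromosome 12; 1 array each. Both Rian probe sets and DQ267102 are lowest, at -2.37 to -3.85 for WT iPSC and -/- ESC, and flox/- iPSC lies nearer to 0.

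The fibroblast signal of these arrays was set beside the members, since the member signals were highest in MEF. The mean of the 11 fibroblast genes was 5.99 in flox/- iPSC, 9.15 in WT iPSC, 7.71 in -/- ESC and 7.95 in WT ESC. WT iPSC, with the highest fibroblast signal of the 4, had the next to lowest Meg3, Rian and Mirg signal. The part of fibroblast RNA in the member differences between these lines was not tested.

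**Figure D4:**
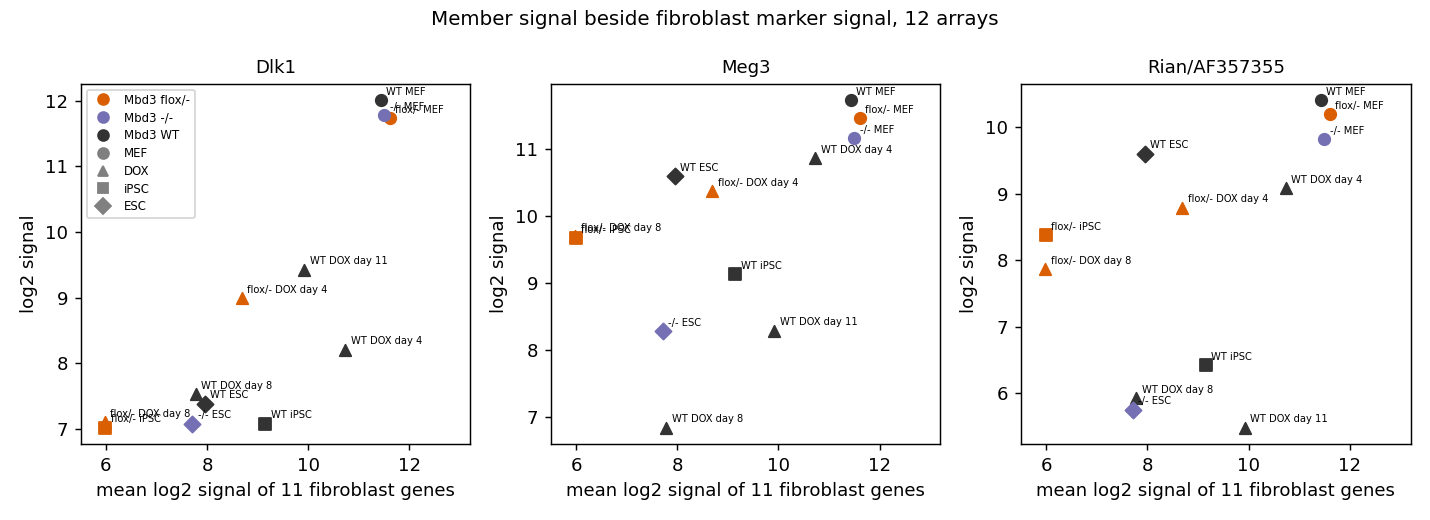
Log2 signal (vertical axis) of Dlk1, Meg3 and the shared Rian probe set against the mean log2 signal of 11 fibroblast genes (horizontal axis) on the 12 arrays, 1 point an array, coloured by Mbd3 genotype and shaped by stage. WT iPSC (9.15) lies to the right of WT ESC (7.95) on the fibroblast axis and below it in all 3 panels.

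During DOX treatment, Dlk1 and the maternal transcripts followed different courses. In flox/- cells, Dlk1 had 11.73 in MEF, 8.99 at day 4 and 7.11 at day 8, and 7.02 in iPSC. In WT cells it had 12.01 in MEF, 8.21 at day 4, 7.53 at day 8 and 9.43 at day 11, and 7.08 in iPSC. The WT day 8 array is of the older series and the other WT arrays of this course are not, so day and series cannot be told apart there. At day 4 Dlk1 was thus lower than in MEF in both genotypes, though still above the iPSC array of the same genotype. It differed from the MEF array of the same genotype by -2.74 in flox/- and -3.80 in WT cells. The WT day 11 array, with the higher Dlk1, also had the fibroblast mean of 9.92, against 10.73 at WT day 4 and 7.78 at WT day 8; the part of fibroblast RNA in the Dlk1 value was not tested.

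In flox/- cells Meg3 had 11.46 in MEF, 10.37 at day 4 and 9.70 at day 8, and 9.67 in iPSC. In WT cells Meg3 had 11.73 in MEF, 10.86 at day 4, 6.84 at day 8 and 8.29 at day 11, and 9.13 in iPSC. The lowest Meg3 signal of all 12 arrays was on the WT day 8 array, followed by 8.28 on the -/- ESC and 8.29 on the WT day 11 array. Among the DOX arrays only WT day 8 is of the older series, so day and series cannot be told apart for it. The shared Rian probe set had 10.20, 8.79, 7.87 and 8.38 in flox/- MEF, day 4, day 8 and iPSC, and 10.41, 9.08, 5.93, 5.48 and 6.42 in WT MEF, day 4, day 8, day 11 and iPSC. The Rian-only probe set had 8.91, 7.94, 6.38 and 6.71 in that flox/- series and 9.20, 7.91, 4.88, 4.89 and 5.48 in the WT series. The Mirg probe set had 7.85, 6.77, 5.89 and 6.18 in the flox/- series and 7.56, 6.31, 4.40, 4.27 and 5.15 in the WT series. On all 4 probe sets of the maternal transcripts, WT day 8 and WT day 11 were below flox/- day 8.

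Over the 5 DOX arrays against the 3 MEF arrays, limma called 1 of the 5 member probe sets, while 6.36% of all probe sets were called, 3.31% lower and 3.06% higher. Dlk1 averaged 8.26 ± 0.97 in DOX arrays (SD, n = 5) and 11.84 ± 0.15 in MEF arrays (SD, n = 3), and fell by 3.59 ± 0.52 (adjusted p = 0.0141). The call was lost without any 1 of the 3 MEF arrays (adjusted p = 0.0547 to 0.0753). Meg3 differed by -2.24 ± 0.88 (adjusted p = 0.179), Rian by -2.53 ± 0.82 (0.112) and -2.72 ± 0.89 (0.114), and Mirg by -2.19 ± 0.61 (0.0771). The DOX and MEF arrays did not overlap for any of the 5, and 19.7% of all probe sets did not overlap in one direction or the other. Among the 42 small RNA probe sets 20 fell and 0 rose, with a median of -0.97, against 0.02 over all.

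DOX arrays against pluripotent arrays gave no member call, and 0.00282% of all probe sets (1 of them) were called. Dlk1 was 1.12 higher in DOX arrays (95% interval 0.09 to 2.15, limma adjusted p = 0.456), with the groups overlapping. The differences of the other 4 probe sets lay between -0.21 and 0.18, with intervals reaching from -2.47 to 2.25.

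Genotype was compared within each stage, from 1 array each and so with no test of a single stage. In MEF the 5 probe sets of flox/- differed from WT by -0.29 to 0.29 and those of -/- by -0.59 to 0.19. At DOX day 4, flox/- minus WT was 0.79 for Dlk1, -0.49 for Meg3, 0.03 and -0.29 for Rian and 0.46 for Mirg. None of these reached 2-fold. Of all probe sets, 1.56% were at least 2-fold lower and 1.35% at least 2-fold higher in flox/- than in WT MEF, 2.81% and 1.77% in -/- than in WT MEF, and 4.72% and 2.72% in flox/- than in WT at day 4.

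At DOX day 8 the maternal transcripts were higher in flox/- than in WT. Meg3 had 9.70 in flox/- and 6.84 in WT, a difference of 2.86, and Rian differed by 1.50 and 1.94 and Mirg by 1.48, while Dlk1 differed by -0.42. Of all probe sets, 9.5% were at least 2-fold higher and 9.06% lower between these 2 arrays, and 99.1% had a lower difference than Meg3. The pluripotency mean was 11.55 on the flox/- day 8 array and 6.69 on the WT day 8 array, the fibroblast mean 5.98 and 7.78, and the WT array belonged to the older series; the part of each in the Meg3 difference was not tested. Of the 42 small RNA probe sets, 5 were at least 2-fold higher in flox/- and 0 lower. The share higher was near the 9.5% of all probe sets, while 9.06% of all were lower. Their median difference was 0.09, with 30 above 0 and 12 below, against a median of -0.01 over all probe sets.

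In iPSC, flox/- had more Rian and Mirg signal than WT. The differences were 1.23 and 1.96 for Rian, 1.03 for Mirg, 0.55 for Meg3 and -0.06 for Dlk1, where 1.59% of all probe sets were at least 2-fold higher. Each genotype is 1 iPSC line on 1 array, so Mbd3 genotype and line cannot be told apart here. The fibroblast mean was 5.99 in flox/- iPSC and 9.15 in WT iPSC, and its part in these differences was not tested. Of the 42 small RNA probe sets 34 were above 0 (4 of them at least 2-fold) and 8 below, while 48.1% of all probe sets were below 0. In ESC, -/- had less signal of the maternal transcripts than WT: Meg3 differed by -2.31, Rian by -3.03 and -3.85, Mirg by -1.65 and Dlk1 by -0.31, where 3.23% of all probe sets were at least 2-fold lower. Only 0.0225% of probe sets had a lower difference than the shared Rian probe set. The -/- ESC and WT ESC arrays are of different lines and series, so Mbd3 genotype, line and series cannot be told apart.

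**Figure D5:**
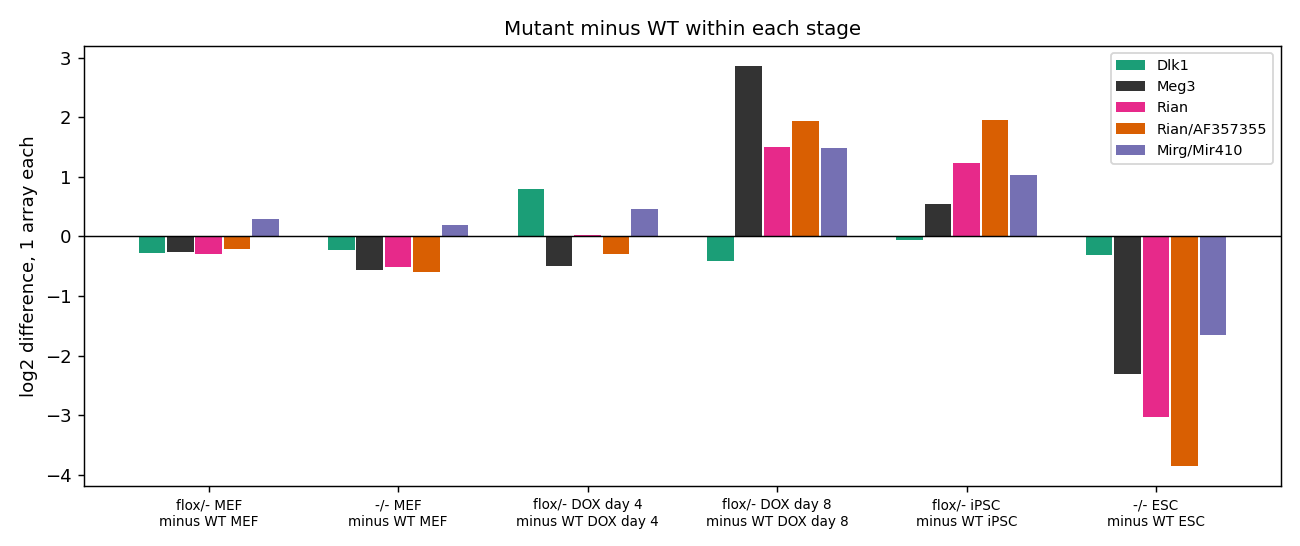
Log2 difference (vertical axis, bars from 0) of the mutant array minus the WT array for the 5 member probe sets at each stage (horizontal axis), 1 array each with no error bar. The bars are under 1 in size in MEF and at day 4, up to 2.86 in flox/- at day 8, up to 1.96 in flox/- iPSC and down to -3.85 in -/- ESC.

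Across stages, neither genotype gave a call. With the stage as a block, flox/- against WT (4 arrays each) called 0 of all probe sets by limma (0.0%), with 2265 at an unadjusted p under 0.05. Mirg, the 1 member among those, had 7.85, 6.77, 5.89 and 6.18 in flox/- MEF, day 4, day 8 and iPSC, against 7.56, 6.31, 4.40 and 5.15 in WT at those stages. It was higher in flox/- in 4 of 4 stages and differed by 0.82 (95% interval 0.20 to 1.43, adjusted p = 0.768). Meg3 differed by 0.66 (-1.01 to 2.33), Rian by 0.62 (-0.35 to 1.59) and 0.85 (-0.53 to 2.24) and Dlk1 by 0.01 (-0.61 to 0.62). The -/- against WT fit over MEF and ESC has 2 arrays each and 1 residual degree of freedom, and it called 0 of all probe sets (0.0%), with 1361 at an unadjusted p under 0.05 and 0 of the members. Meg3 differed by -1.44 (-3.13 to 0.25), Rian by -1.78 (-4.15 to 0.60) and -2.22 (-5.29 to 0.84), Mirg by -0.73 (-2.50 to 1.04) and Dlk1 by -0.27 (-0.76 to 0.22). All 42 small RNA probe sets had a difference below 0 in that fit, against 51.4% of all probe sets, with a median of -0.42. The fit joins a MEF pair and an ESC pair. In MEF 35 of 42 were below 0 (45.5% of all probe sets), with a median of -0.26. In ESC 41 of 42 were below 0 (55.9% of all), with a median of -0.48. The ESC pair differs in line and series as well as genotype, and small RNA probe sets can share a host transcript.

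The genes most like Dlk1, Meg3, the shared Rian probe set and the Mirg probe set were found by Pearson correlation over the 12 arrays among 19935 genes. These correlations describe 12 arrays in which the MEF arrays stand apart, and the hairpin probe sets share transcripts with the members. Meg3 was most like Mir329 (0.962), Mir341, Mir679, Mir382 and Mir377, all of the cluster. The shared Rian probe set was most like DQ267102 (0.990), Mir134, Slitrk5, Mir329 and Mir679, of which Slitrk5 is encoded on another chromosome. The Mirg probe set was most like Mir134 (0.984), Mir377, AF357341, Mir329 and Mir341, where AF357341 is a snoRNA symbol not counted among the 42. Among the first 30 genes, 13 for Meg3, 20 for Rian and 18 for Mirg were small RNA genes of the cluster, and 0 for Dlk1. Dlk1 was most like the homeobox genes Hoxd10 (0.967) and Hoxa10 and the genes Prkar1b, Btbd3 and Ak5. Between different genes, the correlations of Meg3, Rian and Mirg probe sets were 0.94 to 0.97 and those with Dlk1 0.60 to 0.70 over the 12 arrays. Both Rian probe sets correlated with each other at 0.99.

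The other protein-coding genes of the cluster had low signal. Of Begain, Rtl1 and Dio3, Begain, at the Dlk1 end, fell by 0.38 ± 0.10 in pluripotent arrays against MEF (limma adjusted p = 0.0242). Rtl1, a retrotransposon-derived gene transcribed opposite to the maternal transcripts, differed by -0.16 ± 0.12 (adjusted p = 0.362). Dio3, which encodes a thyroid hormone deiodinase, had 6.34 in flox/- iPSC, 5.26 in WT iPSC, 5.03 in -/- ESC and 6.72 in WT ESC, against 5.90 in flox/- MEF, 5.81 in -/- MEF and 5.26 in WT MEF. Dio3 put the pluripotent arrays in the order of Meg3, Rian and Mirg, while the groups overlapped and the difference of 0.18 ± 0.44 was not called (adjusted p = 0.807).

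Genes that flank the cluster differed less than the members. Of 11, Hsp90aa1 (a cytosolic chaperone) rose by 1.06 ± 0.09, Wdr25 by 0.90 ± 0.09 and Wars (tryptophanyl-tRNA synthetase) by 0.55 ± 0.16 in pluripotent arrays against MEF, and Evl (an actin regulator) fell by 0.58 ± 0.12, by limma (adjusted p = 0.000242, 0.000442, 0.0375 and 0.0092). The other 7, Yy1, Degs2, Slc25a29, Slc25a47, Ppp2r5c, Dync1h1 and Wdr20, were not called, at -0.14 to 0.41. The 11 thus held 3 called higher and 1 called lower, while 16.8% of all probe sets were called higher and 15.1% lower. The median of the 11 was 0.07, against 0.01 over all probe sets. Against MEF, 1 flanking gene was called in DOX arrays, Wdr25, which rose by 0.57 ± 0.13 (adjusted p = 0.043). That comparison called 6.36% of all probe sets.

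Regulators of imprints and DNA methylation mostly rose with pluripotency. Of 16, 11 rose and 2 fell in pluripotent arrays against MEF by limma, with a median of 1.46. The share of all probe sets called was 16.8% higher and 15.1% lower. The DNA methyltransferase cofactor gene Dnmt3l rose by 4.07 ± 0.88 and the de novo methyltransferase gene Dnmt3b by 1.83 ± 0.40 (adjusted p = 0.0121 and 0.0129), while Dnmt3a differed by -0.14 ± 0.38 (0.835). Zfp57, which protects methylated imprints, rose by 2.13 ± 0.17, the methylcytosine dioxygenase gene Tet1 by 4.05 ± 0.12, the Polycomb cofactor gene Jarid2 by 2.77 ± 0.16 and Uhrf1 by 2.23 ± 0.20 (adjusted p at most 0.000326). Aff3 fell by 1.71 ± 0.21 and Tet3 by 1.50 ± 0.38 (adjusted p = 0.00105 and 0.0234), and Dppa3, an imprint protector of the early embryo, differed by 0.64 ± 0.26 (0.115). Dnmt3l was 7.48 in flox/- iPSC, 7.52 in WT iPSC, 9.95 in -/- ESC and 10.92 in WT ESC. Dnmt3b was lowest of the 4 in -/- ESC, at 6.70, against 8.45 in WT ESC. Dnmt3a went the other way, highest of the 4 in -/- ESC, at 9.01, and lowest in WT ESC, at 7.33. Mbd3 genotype, line and series cannot be told apart between these 2 ESC arrays.

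Imprinted genes of other regions were mixed. Of 25 measured of 32, 3 rose and 7 fell in pluripotent arrays against MEF, with a median of -0.03. Over all probe sets, 16.8% were called higher and 15.1% lower in this contrast. Igf2, a growth factor gene, fell by 2.96 ± 0.27, Sgce by 2.85 ± 0.30, the noncoding RNA gene Airn by 2.71 ± 0.55 and Peg3 by 2.25 ± 0.45 (limma adjusted p = 0.000307, 0.00058, 0.00894 and 0.00874). Phlda2 rose by 3.56 ± 0.81, Zdbf2 by 2.65 ± 0.22 and Mkrn3 by 0.50 ± 0.11 (0.0148, 0.000226 and 0.0129). Igf2 was 10.05 in flox/- iPSC, 9.73 in WT iPSC, 9.01 in -/- ESC and 10.02 in WT ESC.

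Genes of the Notch pathway, to which Dlk1 is related, went both ways. Of 17, 3 rose and 6 fell in pluripotent arrays against MEF by limma, with a median of -0.16. Among all probe sets, 16.8% were called higher and 15.1% lower. The ligand gene Jag1 fell by 2.05 ± 0.26, the receptor gene Notch2 by 1.65 ± 0.19, the glycosyltransferase gene Lfng by 1.48 ± 0.31 and the target gene Hey1 by 1.14 ± 0.36 (adjusted p = 0.00123, 0.00087, 0.0107 and 0.0484). The ligand genes Jag2 and Dll3 rose by 0.84 ± 0.21 and 0.28 ± 0.08 and the receptor gene Notch4 by 0.83 ± 0.21 (0.022, 0.0391 and 0.021). In DOX arrays against MEF, limma called 0 of the 17, with 3 at an unadjusted p under 0.05, where 6.36% of all probe sets were called.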

How the data were processed

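RNA of 12 samples was labelled with biotin from oligo(dT)-primed cDNA and scanned on Affymetrix arrays, per the labels' protocols. The values deposited by the authors are log2 signals of 35512 probe sets, from 3.11 to 13.99; their summary and normalization methods were not found in the sources used here. Annotation is that of a whole-transcript array, whereas the labels name a 3′ labelling kit. Because array medians spanned 0.122, quantile normalization was applied. By annotation, 21789 probe sets have 1 gene symbol, 1621 several and the rest none here; 0 columns were left out.

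Tests used limma 3.58.1 (R 4.3.3; lmFit and eBayes) on all probe sets with no filter, over the arrays of the compared groups alone, with Benjamini-Hochberg adjustment over all and calls at an adjusted p under 0.05. The code was tested on simulated data. Groups of 1 array were compared by differences, with a 2-fold threshold for counts. All 5 member probe sets exceeded the array median on at least 1 array. The number of arrays limits the precision. Same-stage arrays of flox/- and WT form the block; the labels carry no replicate numbers beyond 1 array a group. Genes named are all member probe sets, the 5 most alike genes of each, all cluster and flanking genes, the 5 brightest small RNAs, and up to 4 called genes each way in the other lists plus some fixed genes; Mir494 was added as a seed partner after its values were seen. Members and lists were chosen with earlier results of these data known. Alternatives were the deposited values, a filter on dim probe sets, 1 probe set a gene, an intensity trend, other arrays in the fit, no block, and leaving out arrays.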

Additional observations from a re-analysis of the deposited data

Results flagged for a closer look

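Dlk1 in WT ESC stood above the other 3 pluripotent arrays. The values were 7.02 in flox/- iPSC, 7.08 in WT iPSC, 7.08 in -/- ESC and 7.39 in WT ESC, and the gap of the highest to the next was 0.836 of the range, against Dixon's 95% critical value of 0.829 for 4 samples. Chance gives such a flag in about 1 of 20 groups, and the gap is small on the log2 scale beside the 4.70 that part pluripotent arrays and MEF. Both ends of the pluripotent and DOX groups were screened for each of the 5 member probe sets, and no other value was flagged. WT ESC is the only pluripotent array of the older series, so line and series cannot be told apart for this flag.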

How the results depend on the processing

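Of the pluripotent against MEF values of the 5 member probe sets, every one kept its sign under the alternatives run. Leaving out 1 array moved the number of members called between 2 and 5 (4 with all arrays), and the count of all called probe sets between 8576 and 11574. In DOX against MEF, leaving out 1 array gave 141 to 3849 calls over all probe sets (2260 with all arrays) and 0 to 1 member; without the arrays of the older series it was 3849. In DOX against pluripotent, the count of 1 became 0 with an intensity trend and without the older series, and 0 to 1019 without 1 array. In flox/- against WT, the fit with no stage block called 3 probe sets, against 0 with it, and no member. Signs turned only for differences that were not called. Without the older series, DOX against pluripotent became 0.777 for Meg3, 0.957 for the shared Rian and 0.371 for the Mirg probe set, and iPSC against ESC 1.123 for Meg3, 1.274 and 1.646 for Rian and 0.671 for Mirg. Without the older series flox/- against WT became -0.071 for Meg3. Leaving out 1 array at a time, DOX against pluripotent ran from -0.619 to 0.386 for Meg3, -0.286 to 0.724 for Rian, -0.703 to 0.582 for the shared Rian and -0.521 to 0.102 for the Mirg probe set. Likewise iPSC against ESC ran from -1.191 to 1.123 for Meg3, -1.756 to 1.274 for Rian, -2.208 to 1.646 for the shared Rian and -0.981 to 0.671 for the Mirg probe set, and flox/- against WT from -0.254 to 0.148 for Dlk1 and -0.071 to 1.045 for Meg3. The fewer arrays of these fits are part of their construction; other causes were not tested. The -/- against WT fit could not be run without 1 array or the older series, which leaves no residual degree of freedom.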
